A study of Mus musculus with 14 samples.

Results

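The immunity-related GTPases are a family of large GTP-binding proteins that mouse cells make in response to interferons. The genes analysed here are the 7 of 55487 in the deposited count table whose names are *Iigp1*, *Irgm1*, *Irgm2*, *Igtp*, *Tgtp1*, *Tgtp2* and *Gm12250*. They were selected on their measured values in these libraries, 1 indole-treated mouse (library G8) having levels far above the other mice. The levels and group differences of the 7 genes are therefore descriptions, given mouse by mouse and with and without G8.

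Interferon-γ binds its receptor at the cell surface, and the signal that follows turns on these genes. The family has an effector branch, which coats the vacuoles in which some intracellular parasites and bacteria live, and a regulator branch, which sits on the cell's own membranes and keeps the effectors inactive there. In the liver, hepatocytes, macrophages and endothelial cells can all respond to interferons.

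Liver RNA came from 14 male TALLYHO mice, an inbred polygenic model of type 2 diabetes, aged 8 to 12 weeks. The vehicle group (*n*=7) received water by oral gavage and the indole group (*n*=7) received indole, a bacterial metabolite of tryptophan, at 20 mg/kg by the same route, with 2 doses per day on 7 consecutive days. Both groups later underwent metabolic tests, with further doses between them, before the right liver lobe was taken. Each library is 1 mouse, and no genetic modification is named. The comparison asks how indole treatment altered the liver transcriptome of diabetic mice.

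The reads assigned to genes numbered from 15197498 to 21060376 per mouse. Hepatocyte markers were present in every library, with summed levels from 77035 to 111696 CPM (counts per 1e6 reads), and G8 lay inside that range. All CPM were scaled between libraries by the trimmed mean of M-values (TMM).

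Sequence just upstream of the RefSeq transcription start is shown because the members share interferon response patterns there. RefSeq windows (GRCm38.p6) were matched for 6 of the 7 members, all on chromosome 11. Those of *Irgm1*, *Irgm2* and *Tgtp1* lie inside the gene as the deposited counts define it, whose 5′ end is further upstream than in RefSeq. The 250 bases before the start were searched on both strands for a GAS pattern, TTCNNNGAA, a pattern of interferon-γ response genes, and for an ISRE core, GAAANNGAA or its reverse TTCNNTTTC, a pattern to which IRF proteins bind. Of the windows printed, that of *Igtp* is chr11:58199436-58199555 (plus), that of *Irgm2* is chr11:58214857-58214976 (plus) and that of *Irgm1* is chr11:48871421-48871540 (minus). That of *Tgtp1* is chr11:48992259-48992378 (minus), that of *Tgtp2* is chr11:49064218-49064337 (minus) and that of *Gm12250* is chr11:58183723-58183842 (plus). Each is 120 bases, written 5′ to 3′ on the strand of the gene, with capitals marking matches to either pattern:
Igtp: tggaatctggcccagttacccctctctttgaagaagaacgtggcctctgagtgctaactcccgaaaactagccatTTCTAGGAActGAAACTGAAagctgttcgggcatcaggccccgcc
Irgm2: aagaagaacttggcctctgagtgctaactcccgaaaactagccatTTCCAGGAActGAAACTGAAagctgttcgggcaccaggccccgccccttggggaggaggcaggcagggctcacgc
Irgm1: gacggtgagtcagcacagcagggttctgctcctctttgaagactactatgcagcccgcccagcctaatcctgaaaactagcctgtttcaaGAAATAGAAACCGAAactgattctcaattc
Tgtp1: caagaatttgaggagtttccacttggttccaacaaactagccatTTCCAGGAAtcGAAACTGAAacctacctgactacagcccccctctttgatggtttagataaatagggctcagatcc
Tgtp2: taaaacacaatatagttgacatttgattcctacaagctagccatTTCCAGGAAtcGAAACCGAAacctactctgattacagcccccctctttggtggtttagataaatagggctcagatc
Gm12250: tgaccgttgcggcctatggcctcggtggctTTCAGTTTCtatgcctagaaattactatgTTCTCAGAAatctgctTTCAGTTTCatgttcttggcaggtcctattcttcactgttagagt

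The ISRE core was found in 6 of the 6 windows and the GAS pattern in 5, *Irgm1* being the member without it. Over all 32851 RefSeq windows of this length, 7.02% held the GAS pattern, 7.13% the ISRE core and 0.752% both. In *Igtp*, *Irgm2*, *Tgtp1* and *Tgtp2* the GAS match is followed after 2 bases by the ISRE core, a stretch of 20 bases that differs at 1 position between *Igtp* and *Irgm2* and at 1 position between *Tgtp1* and *Tgtp2*. Between these pairs the stretch differs at 2 to 4 positions. In *Gm12250* the GAS match has an ISRE core on its other strand on each side, and in *Irgm1* 2 matches to the ISRE core overlap. A match describes the letters only.

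**Figure D1:**
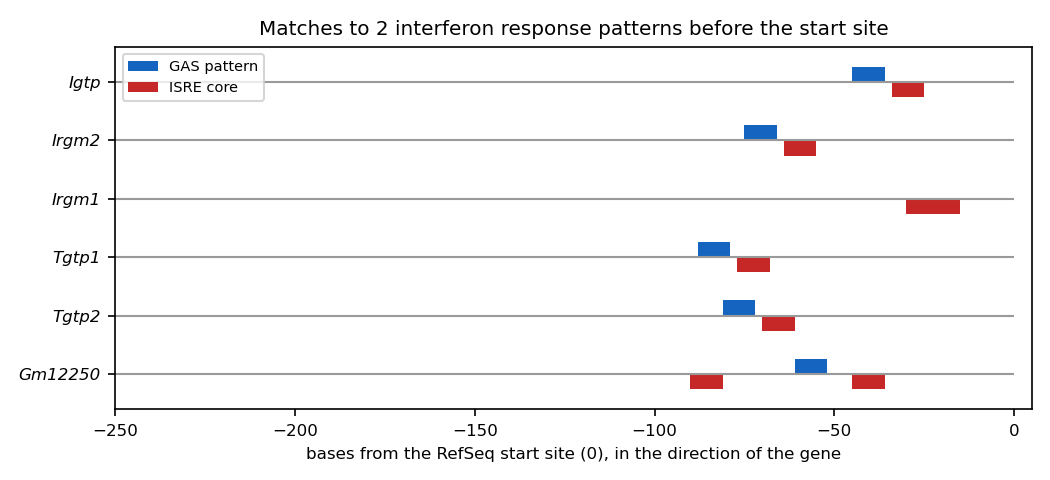
Position of the GAS pattern (blue) and the ISRE core (red) in the 250 bases before the RefSeq start site of 6 members, in bases, with the gene running to the right. In 4 members the 2 patterns lie side by side, and every match lies within 90 bases of the start.

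Of the 7 genes, 6 lie on chromosome 11 and *Iigp1* (ENSMUSG00000054072) lies on chromosome 18 of GRCm38, from 60376027 to 60392634 on the plus strand. *Irgm1* (ENSMUSG00000046879, 48861968 to 48871683), *Tgtp1* (ENSMUSG00000078922, 48985327 to 48994172) and *Tgtp2* (ENSMUSG00000078921, 49057194 to 49064206) form 1 cluster on the minus strand of chromosome 11. *Gm12250* (ENSMUSG00000082292, 58187739 to 58189012), *Igtp* (ENSMUSG00000078853, 58199556 to 58207591) and *Irgm2* (ENSMUSG00000069874, 58199618 to 58222782) form a second cluster on the plus strand. The deposited table holds *Gm12250* as a single-exon processed pseudogene of 1274 bases, whereas RefSeq holds a protein-coding gene from 58183843 to 58190198 (GRCm38.p6), so reads outside that exon were not part of its count.

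Regulators are described first. *Igtp* (also Irgm3), a regulator found on the endoplasmic reticulum and lipid droplets, had 29.2 CPM in the lowest vehicle-treated mouse, 38.9 CPM at the median and 70.4 CPM in the highest. The 6 indole-treated mice other than G8 had 28.8 CPM at the lowest, 32.97 CPM at the median and 34.95 CPM at the highest. G8 had 338 CPM, from 5026 reads. The 6 mice thus lay within or just below the lower part of the vehicle range, 1 of them below every vehicle-treated mouse, and G8 was 4.80 times the next highest mouse, vehicle-treated G11.

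*Irgm2*, a regulator of the Golgi apparatus, had a vehicle median of 33.6 CPM, between 21.6 and 49.6 CPM. In the indole group without G8 it lay between 19.0 and 26.2 CPM around a median of 22.4 CPM, and in G8 it reached 158 CPM. Of the 6 mice, 3 lay below every vehicle-treated mouse. The remaining 3 overlapped with vehicle-treated G6 alone, the lowest of its group.

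*Irgm1*, a regulator needed for defence against mycobacteria and for the survival of activated T cells, spanned 15.4 to 32.4 CPM among vehicle-treated mice (median 18.6 CPM). It spanned 12.7 to 18.6 CPM among the 6 given indole (median 15.1 CPM). G8 had 69.1 CPM, which was 2.13 times G11, the smallest such ratio of the 7 genes. Of the 6 mice, 4 lay below every vehicle-treated mouse.

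Effectors spanned a far wider range of levels. *Iigp1* (Irga6), the most abundant member, coats the vacuole of *Toxoplasma gondii*. It had 150 CPM in the lowest vehicle-treated mouse, 184 CPM at the median and 238 CPM in the highest, against 113, 133 and 156 CPM in the 6 indole-treated mice and 960 CPM in G8. The highest of the 6 mice (G12) overlapped with 2 vehicle-treated mice and the other 5 lay below all 7.

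*Gm12250* (Irgb10), an effector that acts on bacterial membranes, ranged from 0.934 to 5.98 CPM in the vehicle group, the 2 highest being G4 and G11. It ranged from 0.736 to 2.20 CPM in the 6 indole-treated mice, with medians of 2.54 CPM and 1.41 CPM. G8 had 30.6 CPM, from 455 reads against 13 to 39 in the 6 mice. The lowest vehicle-treated mouse (G6) lay below all but 1 of the 6, so the groups overlapped at the low end.

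*Tgtp1* (Irgb6), an effector that binds early to parasite vacuoles, had from 4 to 76 reads in the vehicle group and from 5 to 16 reads in the 6 indole-treated mice, against 670 in G8. These counts correspond to 0.237 to 4.21 CPM (median 1.69 CPM), 0.282 to 0.906 CPM (median 0.431 CPM) and 45.1 CPM. The vehicle group itself spread over a 17.8-fold range, with G11 and G4 at the top and G13 and G6 at the bottom, below all 6 indole-treated mice. G8 was 10.7 times the next highest mouse and 105 times the median of the 6, the greatest such ratio of the 6 members with enough reads for a test.

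*Tgtp2*, a near copy of *Tgtp1*, had 17 reads in G8, 2 in G4, 1 in G9 and 0 in the other 11 mice. Against the highest level that 3 reads would give in any of the 6 other indole-treated mice, 0.196 CPM, the 1.14 CPM of G8 was at least 5.82-fold higher. Stretches of 100 bases that occur without mismatch in another gene make up 73.1% of *Tgtp1* and 76.8% of *Tgtp2* transcript sequence, nearly all of it shared between the pair. Only uniquely mapped reads were kept, so counts for both are uncertain. For *Igtp* and *Irgm2*, which overlap on the same strand over 162 exon bases, the shares are 5.16% and 3.01%.

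**Figure D2:**
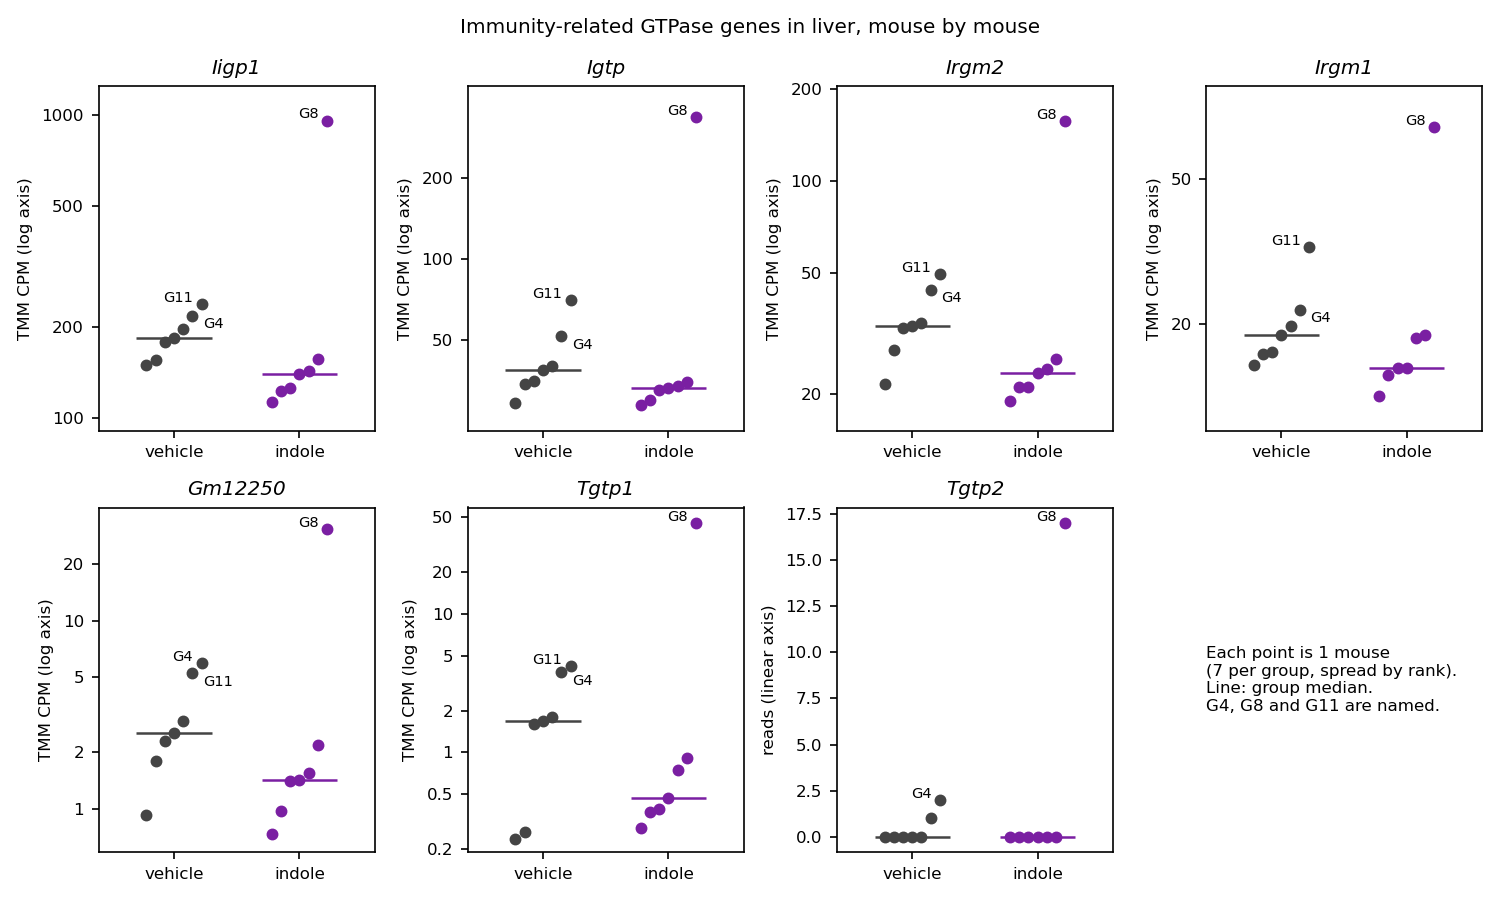
Level of each member in each mouse (points, 7 per group), as TMM-scaled CPM on a log axis, or reads on a linear axis for Tgtp2, with lines at the group medians. G8 is the highest mouse for all 7 genes, and G11 or G4 is the next highest.

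G8 was thus the highest of 14 mice for all 7 members. Over the 12653 genes tested, 9.18% were highest in G8. Levels of the members summed to 1602 CPM in G8, with 224 to 400 CPM for vehicle (median 273 CPM) and 185 to 229 CPM for the remaining 6 indole-treated mice (median 206 CPM). In the vehicle group the sum was highest in G11 (400 CPM) and G4 (345 CPM), and these 2 mice took the top vehicle positions for all 6 members with enough reads.

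Levels can be compared between genes only per length, so CPM were divided by the exon length of each gene in kilobases (kb). In the vehicle group *Iigp1* had 32.4±5.46 CPM per kb (SD, *n*=7), *Igtp* 21.2±6.94, *Irgm2* 9.45±2.55, *Irgm1* 3.47±1.003, *Gm12250* 2.44±1.45 and *Tgtp1* 0.607±0.484. This order held in 12 of the 14 mice. Across vehicle-treated mice the ranges of *Iigp1* and *Igtp* overlapped, as did those of *Irgm1* and *Gm12250* and those of *Gm12250* and *Tgtp1*. Within single mice, *Iigp1* was above *Igtp* in 13 of 14, *Irgm1* above *Gm12250* in 12 of 14 and *Gm12250* above *Tgtp1* in 14 of 14. *Gm12250* stood above *Irgm1* in G4. Exon length was not corrected for sequence shared between genes, and only uniquely mapped reads were kept. Stretches of 100 bases found in another gene made up 73.1% of *Tgtp1* and 0% of *Gm12250* transcript sequence. The level of *Tgtp1* per kb may therefore be too low, and its place below *Gm12250* is uncertain.

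The order differed more in G8, with *Igtp* (167 CPM per kb) just above *Iigp1* (165 CPM per kb) and both *Gm12250* and *Tgtp1* above *Irgm1*. *Tgtp1* and *Gm12250*, the least abundant of the tested members, made up 3.31% and 5.65% of the summed CPM per kb in G8. Their shares in the other 13 mice were 0.116% to 1.40% and 1.29% to 5.55%. The shares of *Tgtp1* carry the limit of uniquely mapped reads given above. *Irgm1* made up 2.80% in G8 against 4.03% to 6.99% elsewhere. The sum of the 3 regulators over that of the 4 effectors, per kb, was 1.09 in G8, inside the range of 0.790 to 1.199 in the other mice. The ratio of *Igtp* to *Irgm2* was 3.91 in G8, against 1.84 to 3.14 in the others.

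**Figure D3:**
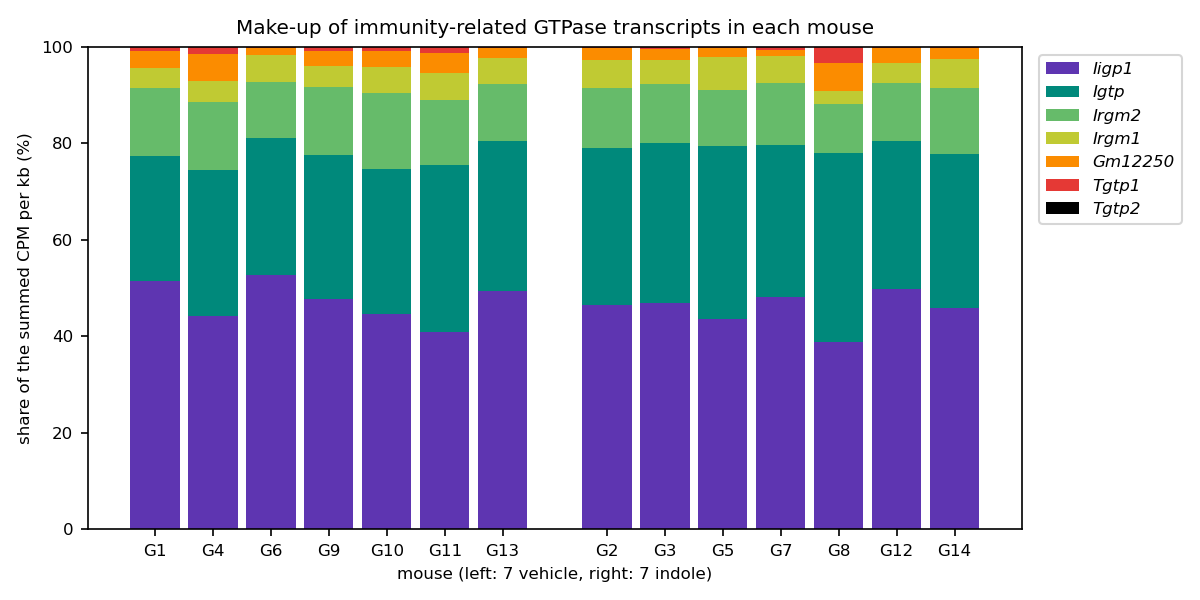
Share of each member in the summed CPM per kb of the 7 genes (%), as stacked bars, 1 bar per mouse, vehicle on the left and indole on the right. Iigp1 and Igtp make up most of the sum in every mouse, and the bar of G8 has the widest bands of Igtp and Tgtp1 and the narrowest of Irgm1.

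In the comparison of all 14 mice with edgeR's quasi-likelihood test, 6 members had enough reads, *Tgtp2* being left out. All 6 had a higher fitted level in the indole group, with log2 fold changes from 0.20 (standard error 0.389) for *Irgm1* to 1.79 (1.26) for *Tgtp1* and a median of 0.61, beside a median of 0.00 over all genes tested, of which 51.3% were higher. None of the 6 had an adjusted *p* below 0.05 (background 0.0% of 12653 genes) or an unadjusted *p* below 0.05 (background 3.81%, or 482 genes). With DESeq2, also run by the authors, there were 719 genes at an unadjusted *p* below 0.05 and again 0 after adjustment. In that DESeq2 comparison, whose default settings replace outlying counts, all 7 members were lower in the indole group, the opposite direction to edgeR. All but *Tgtp2* had an unadjusted *p* below 0.05. The background in this direction was 1.79% of 22535 genes, a set not filtered for low counts. Because the members were chosen for their levels in G8, nothing is read from that share.

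Leaving out G8 turned the direction of all 6 in edgeR, where 48.4% of all genes tested were then lower. Without it the log2 fold changes were −0.50 (standard error 0.105) for *Iigp1*, −0.63 (0.151) for *Irgm2*, −0.36 (0.153) for *Irgm1* and −0.41 (0.164) for *Igtp*. They were −1.17 (0.362) for *Gm12250* and −1.86 (0.584) for *Tgtp1*, the 2 least abundant. All 6 had an unadjusted *p* below 0.05 in this direction, beside a background of 2.49% (318 of 12761 genes). Because the genes and the mouse left out were both chosen with these values known, nothing is read from that share. None had an adjusted *p* below 0.05 (background 0.0%), with 531 genes at an unadjusted *p* below 0.05 in edgeR, 753 in DESeq2 and 0 adjusted in either.

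For every tested member, all 6 of these indole-treated mice lay below the vehicle median. The share of all genes with this pattern was not computed. The members and the mouse left out were chosen on these values, so nothing is read from it. None of the members had all 6 mice below all 7 vehicle-treated mice, a separation found for 0.0705% of genes (9 of 12761). With G4 or G11 left out as well as G8, the direction remained lower for all 6. *Irgm1* then no longer had an unadjusted *p* below 0.05 in either case, nor *Igtp* without G4. Leaving out G11 brought the log2 fold change of *Igtp* to −0.25 and that of *Irgm1* to −0.21.

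**Figure D4:**
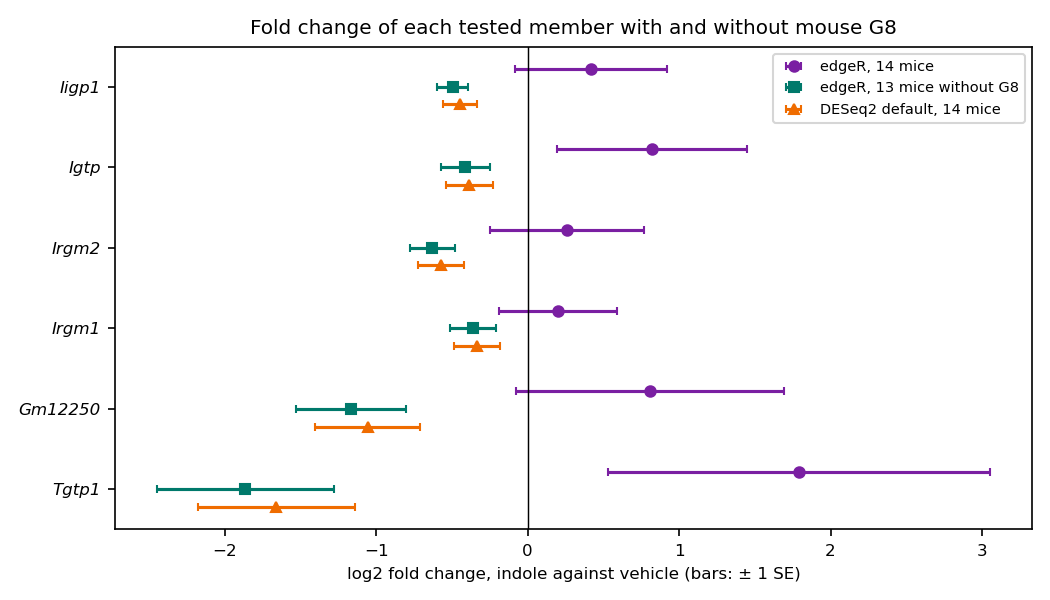
Log2 fold change, indole against vehicle, of the 6 tested members with bars of 1 standard error, from edgeR on 14 mice (circles), edgeR on 13 mice without G8 (squares) and DESeq2 with default settings on 14 mice (triangles). All 6 circles lie above 0 and all squares and triangles lie below it. DESeq2 with these settings replaces outlying counts.

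The correlation between members over all 14 mice follows from their selection for high levels in G8 and is given as a description only. The Pearson correlation of log2 CPM between members had a median of 0.925 over 15 pairs, from 0.851 (*Irgm1* with *Tgtp1*) to 0.972 (*Irgm2* with *Gm12250*). Without G8 the median was 0.818, from 0.579 to 0.934, with the same pairs at the ends. It was 0.830 within the 7 vehicle-treated mice and 0.044 within the 6 indole-treated mice, where pairs ran from −0.62 (*Tgtp1* with *Gm12250*) to 0.856 (*Iigp1* with *Irgm2*). The points share libraries and depth. Levels also varied less among these 6 mice, with an SD from 7.36% of the mean (*Igtp*) to 46.4% (*Tgtp1*). In the vehicle group it ran from 16.9% (*Iigp1*) to 79.8% (*Tgtp1*). *Tgtp1* had only 5 to 16 reads in the 6 mice. Whether the correlation differs between the groups was not tested.

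The genes whose log2 CPM followed the summed level of the family most closely over 14 mice, out of 12647 compared, were *Il18bp* (*r*=0.959), which encodes a decoy for interleukin-18, the immunoproteasome subunit gene *Psmb8* (0.950), the antigen peptide transporter gene *Tap1* (0.941), *BC023105* (0.936) and the pore-forming macrophage gene *Mpeg1* (0.935). *Il18bp* had 47.9 CPM in G8, while vehicle-treated mice ranged from 4.41 to 9.38 CPM and the remaining 6 from 3.72 to 5.89 CPM. The sum is mostly *Iigp1*, which gave 960 of the 1602 CPM in G8. The family was selected for its level in G8, so the correlations over 14 mice describe that choice. Over the 13 mice without G8 the closest were *Parp14* (0.901), *Parp12* (0.893), *Irf9* (0.880), *Ly6c1* (0.875) and *Ifi27l2b* (0.873). The top 5 of the 13 mice and the top 5 of the 14 have no gene in common.

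Other genes of the interferon pathway were taken from lists chosen with earlier results of these data known. G8 was left out because of its values. Nothing is therefore read from how many genes of a list were highest in G8 or lower without it. Of the ligands, *Ifng* itself had 0 reads in G8 and 1 read over the other 13 mice, and 9 of 12 ligand genes had no read in any mouse. A count of 0 allows up to 3 reads, so *Ifng* transcripts were not detectable in G8 at this depth. *Il18*, a cytokine gene that promotes interferon-γ release and the most abundant of this list, had 12.9 CPM in G8 and 4.52 to 10.9 CPM in the others. The receptor genes *Ifngr1* and *Ifngr2* had 14.3 and 10.03 CPM in G8, both inside the range of the other mice (9.85 to 15.0 and 6.94 to 10.4 CPM). The most abundant of the list, the kinase gene *Jak1*, had 87.7 CPM in G8 and 68.1 to 91.7 CPM elsewhere. The receptor gene *Ifnar1* was lower in the indole group over 14 mice at an unadjusted *p* below 0.05, with a log2 fold change of −0.28, and −0.26 without G8. Of the 8 receptor and kinase genes tested, 1 was highest in G8 and 7 were lower in indole-treated mice without G8, none of them at an unadjusted *p* below 0.05.

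Among 11 tested transcription factors and regulators, 4 were highest in G8, beside 9.18% of all genes tested. *Irf9*, a DNA-binding factor of the type I interferon response, had 42.6 CPM in G8 and 10.7 to 32.7 CPM elsewhere, and *Irf8*, a factor of myeloid cells, had 7.06 CPM against 1.88 to 4.34 CPM. *Irf1* had 32.8 CPM in G8 and 33.5 CPM in the highest vehicle-treated mouse, so that it was not highest in G8. Without G8 all 11 were lower in indole-treated mice, 4 at an unadjusted *p* below 0.05, among them *Irf9* (log2 fold change −0.49), *Irf2* (−0.24) and the feedback inhibitor *Socs3* (−1.21). Their median was −0.26, beside 0.00 over all genes tested. Of all genes, 48.4% were lower and 2.49% were lower at an unadjusted *p* below 0.05.

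The guanylate-binding proteins are a related family of interferon-inducible GTPases that work beside the immunity-related GTPases on the same vacuoles. All 9 of the 13 that had enough reads were highest in G8, beside 9.18% of all genes tested. *Gbp11*, the most abundant, had 217 CPM in G8, 49.4 to 128 CPM with vehicle and 45.7 to 68.0 CPM in the 6 remaining mice given indole. *Gbp10* had 45.4 CPM, 1.61 to 8.58 CPM and 0.677 to 3.85 CPM in the same order. Over 14 mice 7 of the 9 were higher in the indole group (median log2 fold change 0.53) and without G8 8 were lower (median −0.59). Of those 8, *Gbp11* (−0.59), *Gbp2* (−1.24) and *Gbp10* (−1.31) had an unadjusted *p* below 0.05. Over all genes tested without G8, 48.4% were lower and 2.49% were lower at that *p*.

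Of 11 further genes of the immunity-related GTPase group and its close relatives, 3 had enough reads. *Gm4951*, the most abundant, had 44.0 CPM in G8 and 11.001 to 31.4 CPM in the other mice. *Gm4841*, named here after its values were seen, had 333 reads in G8 and 45 reads over the other 13 mice together. *Irgq*, a distant relative, had 7.94 CPM in G8, inside the range of 7.12 to 14.01 CPM of the others. None of the 3 tested genes had an unadjusted *p* below 0.05 in either comparison.

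All 20 tested genes of the list of other interferon-γ targets were highest in G8, among them *B2m* (2911 CPM against 1166 to 1896 CPM) and the MHC class II gene *H2-Eb1* (75.2 CPM against 4.003 to 17.6 CPM). Without G8 all 20 were lower in indole-treated mice (median log2 fold change −0.21), 7 of them at an unadjusted *p* below 0.05, including the chemokine gene *Cxcl9* (−1.86), *H2-Eb1* (−0.815) and *H2-Aa* (−0.63). Of 26 tested type I interferon targets, 19 were highest in G8, beside 9.18% of all genes tested. The most abundant, *Ifitm3*, had 728 CPM in G8 and 243 to 512 CPM elsewhere. Without G8 all 26 were lower (median −0.56), 10 at an unadjusted *p* below 0.05, beside 48.4% and 2.49% over all genes tested. These included *Ifit1* (−1.02), *Ifit3b* (−0.93) and *Zbp1* (−0.94). These targets summed to 1081 CPM in G11 and to 551 CPM in G4, where the vehicle median was 578 CPM. The 2 vehicle-treated mice with the most transcripts of the GTPase family thus differed in this sum. *Ifitm3* alone gave 512 and 273 CPM of it, so the sum does not describe each gene. In G4 *Ifit1* (4.17 CPM) and *Zbp1* (4.56 CPM) lay above their vehicle medians of 3.93 and 3.66 CPM. *Ifit3b* (2.03 CPM) lay below its median of 2.17 CPM.

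The last list holds genes of autophagy conjugation and vacuole targeting, some of whose proteins help direct the GTPases to vacuoles. Of 19 tested, 3 were highest in G8, beside 9.18% of all genes tested. The median log2 ratio of G8 to the median of the 6 other indole-treated mice was 0.03 for these 19 genes and −0.01 over all genes tested. It was 3.10 for the GTPases, 2.53 for the guanylate-binding proteins, 2.13 for type I interferon targets and 1.58 for other interferon-γ targets. Transcription factors and regulators had 0.80, and receptors and kinases 0.22. Without G8, 10 were lower and 9 higher, with *Gabarapl1* (−0.22) at an unadjusted *p* below 0.05. No list had a gene with an adjusted *p* below 0.05 in either comparison.

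**Figure D5:**
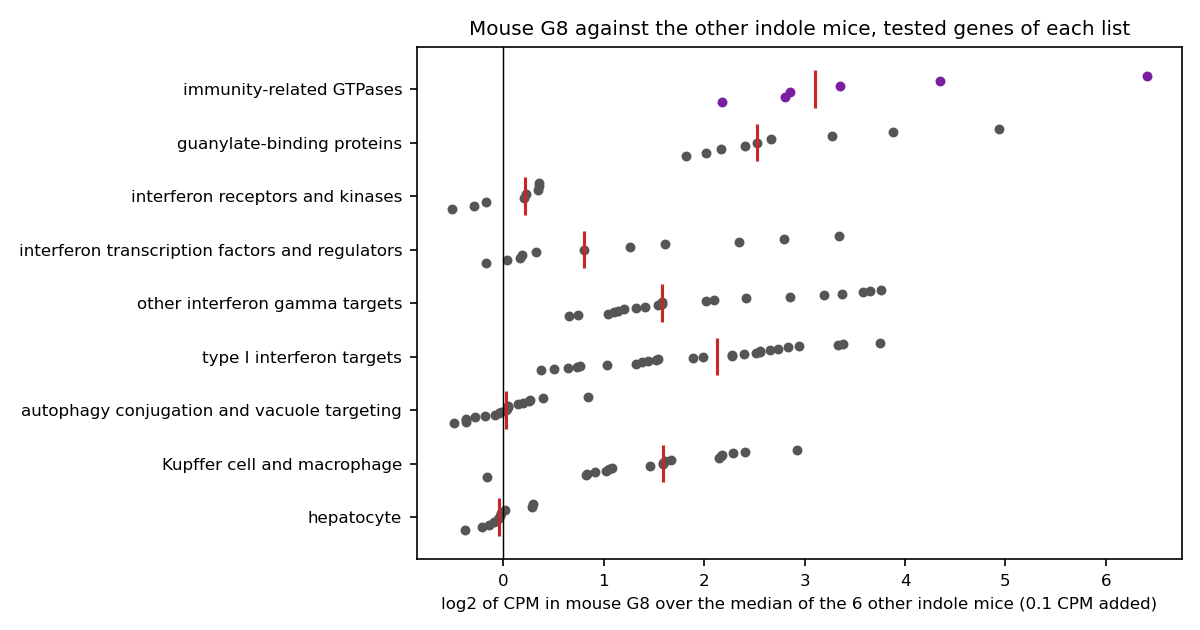
Log2 ratio of the CPM in G8 to the median of the 6 other indole-treated mice, after adding 0.1 CPM to both, for each tested gene of 9 lists (points), with the list median as a red line. Medians are 3.10 for the GTPases, 2.53 for the guanylate-binding proteins, 2.13 for type I interferon targets and 1.58 for other interferon-γ targets. They are 1.59 for Kupffer cell and macrophage markers, 0.03 for autophagy conjugation and vacuole targeting and −0.04 for hepatocyte markers.

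Summed markers of macrophages and of T and NK cells also lay above the other mice in G8, and those of other cell types did not. The summed level of Kupffer cell and macrophage markers was 853 CPM in G8, 165 to 425 CPM with vehicle and 187 to 300 CPM in the 6 remaining mice given indole. Of 18 macrophage markers tested, 16 were highest in G8, beside 9.18% of all genes tested. *Mpeg1*, named above, gave 235 CPM of the sum in G8, and none of the 19 was at 0 in G8. For markers of T and NK cells the sum was 18.2 CPM in G8 and 2.99 to 9.60 CPM elsewhere, with *Cd3e*, *Cd8b1* and *Icos* at 0 in G8. That sum rests on 271 reads in G8. Only 2 of the 22 T and NK cell markers had enough reads for a test, and 1 of these was highest in G8. For neutrophil markers it was 47.8 CPM in G8 and 208 CPM in G11, of which *Lcn2*, which hepatocytes also make in the acute-phase response, gave 45.3 and 205 CPM. The 9 other neutrophil markers summed to 2.42 CPM in G8, 0.467 to 2.77 CPM with vehicle and 0.793 to 2.03 CPM in the 6 mice, with *Ly6g*, *Mpo* and *Elane* at 0 in G8. For B and plasma cell markers it was 6.06 CPM in G8, inside the range of 3.94 to 10.1 CPM of the others. Sums for sinusoidal endothelium (195 CPM), stellate cells and fibroblasts (255 CPM) and bile duct (33.6 CPM) in G8 also lay inside the ranges of the others. In bulk liver, more cells of a type and more RNA per cell cannot be told apart, and the part of these cells in the levels of the GTPases was not tested.

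Without G8, 5 of the 18 tested macrophage markers were higher and 13 lower in indole-treated mice, none at an unadjusted *p* below 0.05. Erythroid markers summed to 204 to 384 CPM in the vehicle group, 274 to 1094 CPM in the 6 indole-treated mice and 263 CPM in G8, and all 5 tested were higher without G8, each at an unadjusted *p* below 0.05 (background 1.67% of 12761 genes in this direction). Of 10 sinusoidal endothelium markers 9 were higher, 4 of them at an unadjusted *p* below 0.05. Their part in the group differences of the GTPases was not tested.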

How the data were processed

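The authors had polyadenylated RNA made into strand-specific libraries, trimmed adapters and used HISAT2 for alignment to GRCm38 (Ensembl genes). They deposited raw counts per gene from reads that mapped uniquely. The counting tool and its strand setting are not given in the sources used here. Mice were assigned to groups from the sample labels, which give no batch or pairing. No 2 libraries of a group were alike within sampling noise (lowest chi-square per degree of freedom 15.7).

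Counts were analysed with edgeR 4.0.16 in R 4.3.3 (TMM, filterByExpr with a minimum count of 10, robust quasi-likelihood test) on 14 mice (12653 genes) and again, from normalisation on, on 13 mice without G8 (12761 genes), with Benjamini–Hochberg adjustment over all genes tested and a threshold of 0.05. The procedure was tested on simulated counts. Standard errors derive from the *F* statistic. Correlations used log2 CPM with a prior count of 2.

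Alternatives were RLE and upper quartile scaling, no filter, a minimum mean count of 10, a fit without robust estimation, DESeq2 1.42.0 with and without replacement of outlier counts, limma 3.58.1 voom with sample quality weights, and leaving out each mouse. Leaving out a second mouse beside G8 was added after the data had been seen. Members and gene lists were chosen with earlier results of these data known. Genes of the lists were named where most abundant, at an unadjusted *p* below 0.05 (at most 3 a list), or if *Ifng*, *Ifngr1*, *Ifngr2*, *Irf1*, *Irf8* or *Irf9*. Also named were the 5 genes closest to the summed family level by Pearson correlation in each set of mice. *Irgq*, *Gm4841* and *Lcn2* were named after their values were seen. All 7 members had the same coordinates in the deposited table and GENCODE. A gene that met the naming rule is not reported here. Protein sequences were not used here.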

Additional observations from a re-analysis of the deposited data

Results flagged for a closer look

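For 8 measures in 2 groups of 7 mice, the gap between an extreme mouse and its nearest neighbour was divided by the range of its group, on CPM. A ratio above Dixon's critical value for 7 mice was taken as far from the others, which chance gives in about 1 of 20 groups, and 8 of the 16 groups passed it. Mouse G8 was the extreme in 7 of these, with ratios of 0.949 for *Iigp1*, 0.895 for *Irgm1*, 0.948 for *Irgm2*, 0.98 for *Igtp*, 0.986 for *Tgtp1*, 0.951 for *Gm12250* and 0.969 for the sum of the family. The other was vehicle-treated G11 for *Irgm1*, with a ratio of 0.619. The members were selected for the level in G8, so these ratios describe that choice.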

How the results depend on the processing

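The direction of the members in the 14-mouse comparison turned in 3 settings. DESeq2 with default settings, which replaces outlying counts, gave log2 fold changes of −0.45 for *Iigp1*, −0.34 for *Irgm1*, −0.57 for *Irgm2*, −0.38 for *Igtp*, −1.66 for *Tgtp1* and −1.06 for *Gm12250*. DESeq2 without replacement gave higher levels in the indole group for all 6, with no *p* value. Limma voom with sample quality weights gave −0.10 for *Iigp1*, −0.069 for *Irgm1*, −0.23 for *Irgm2*, −0.47 for *Tgtp1* and −0.56 for *Gm12250*, and *Igtp* kept its direction. With each mouse left out in turn the range was −0.50 to 0.55 for *Iigp1*, −0.36 to 0.36 for *Irgm1*, −0.63 to 0.39 for *Irgm2*, −0.41 to 0.99 for *Igtp*, −1.86 to 2.11 for *Tgtp1* and −1.17 to 1.05 for *Gm12250*, the low end being without G8 in each case and the other mice giving positive values.

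Without G8, all 6 members were lower in every setting run, and with a second mouse left out the range was −0.54 to −0.43 for *Iigp1*, −0.42 to −0.21 for *Irgm1*, −0.71 to −0.52 for *Irgm2*, −0.48 to −0.25 for *Igtp*, −2.08 to −1.55 for *Tgtp1* and −1.34 to −0.93 for *Gm12250*. *Irgm1* had an unadjusted *p* of 0.05 or above without G2, G3, G4, G7, G11 or G12 and with voom, *Igtp* without G4, and *Tgtp1* with voom. The count of genes with an adjusted *p* below 0.05 was 0 to 0 over the mice left out, in both comparisons, and 0 in every other setting. Without a filter on low counts 1336 genes had an unadjusted *p* below 0.05 with G8 and 1453 without. The median correlation between members was 0.754 by Spearman's rank and 0.818 without G8. No paired analysis was possible because the mice carry unique names that do not pair them. Depth limits *Tgtp2* most, with 0 reads in 11 of 14 mice, and *Tgtp1*, with 4 to 76 reads outside G8.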
